A study of Homo sapiens with 33 samples.

Results

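The 511 regions described here ranked among the strongest MITF sites of every wild-type library but fell out of the strongest sites of 3 MITF variants, E260A, N278D and Y253A. A strong list was defined as the 10000 rows of highest −log10 q on chromosomes 1 to 22 and X in the peak list of a library. The strong lists of the WT, E260A, N278D and Y253A libraries merged into 14301 intervals, of which 7052 were overlapped by all 3 WT lists. The 511 members were those WT-strong intervals that at most 1 of the 9 variant lists overlapped: 331 were in none of the 9 and 180 were in 1. The other 6541 WT-strong intervals, in 2 or more of the 9 lists, served as the comparison set, and 4618 of them were in all 9. The members were thus chosen by their −log10 q ranks, and their ranks in these 4 groups are a description and carry no test. The 7 remaining groups took no part in the choice.

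The cells of all groups were UACC-257, a human melanoma line. Every group, WT and Empty included, had MITF knockdown as its genotype and doxycycline as its treatment. The groups differ by the name in the library title: WT, Empty, the 3 variants of the rule, or a further MITF form called Q261A, rep263A, A264C, K243A, rep217A or G244E, with 3 libraries each. The assay was CUT&Tag with an antibody to the HA tag, which guides a transposase to the tagged protein so that DNA near it is cut and labelled. The lists of replicates 2 and 3 were identical in rep217A and again in rep263A. Each pair was treated as 1 library, so both groups have n = 2 and the study 31 distinct libraries. The labels name no separate cultures, so p-values measure only the spread between these libraries, which may be technical. The amount of each MITF form in the cells was not analysed here, and all groups rest on 1 cell line. Of 16 pigmentation genes, 13 held or neighboured a WT-strong interval, against 0 of 12 lymphoid, 1 of 12 fibroblast and 1 of 11 keratinocyte genes. The counts were 12 of 16 for housekeeping genes, 23 of 26 for lysosome and autophagy genes and 5 of 13 for lineage regulators. Over all 19974 protein-coding genes it was 4921. The assay mapped MITF itself, so these counts do not establish the cell type.

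Lists held 81488 to 300000 rows. Relative depth was read from the commonest local background of a list, in fragments stacked per position. This was 1.08 to 1.20 in WT, 1.04 to 1.49 in A264C, 0.835 to 0.961 in E260A, 0.882 to 1.12 in N278D, 0.991 to 1.16 in Y253A and 0.697 to 0.885 in Q261A. It was 0.427 to 0.487 in rep263A, 0.276 to 0.348 in rep217A, 0.132 to 0.244 in K243A, 0.108 to 0.151 in G244E and 0.030 in all 3 Empty libraries. The −log10 q at row 10000 ran from 77.0 to 133 in WT, A264C, Q261A and the 3 variants of the rule. It ran from 45.8 to 51.3 in rep263A, from 9.74 to 22.3 in K243A, G244E and rep217A, and from 1.63 to 1.87 in Empty. Ranks are compared within a list, since the same rank stands for different −log10 q in different libraries.

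MITF is a basic helix-loop-helix leucine zipper transcription factor that directs the melanocyte lineage and its pigment and lysosome-related genes. It binds DNA as a dimer through its basic region, at the E-box CACGTG and at the related hexamer CATGTG. A T next to the hexamer, as in the M-box TCATGTG of pigment gene promoters, favours its binding. TFEB, TFE3, USF and MYC-MAX dimers are known to bind the same CACGTG, which is common in the promoters of lysosomal and housekeeping genes.

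Promoters of members carried the canonical E-box often, and 4 of them are shown in full for the 250 bases before the annotated start, since they differ in copy number and have their values by library given further on. Sequences are from RefSeq (GRCh38.p14), 5′ to 3′ on the strand of the gene, with each CACGTG in capitals.
ARHGAP12: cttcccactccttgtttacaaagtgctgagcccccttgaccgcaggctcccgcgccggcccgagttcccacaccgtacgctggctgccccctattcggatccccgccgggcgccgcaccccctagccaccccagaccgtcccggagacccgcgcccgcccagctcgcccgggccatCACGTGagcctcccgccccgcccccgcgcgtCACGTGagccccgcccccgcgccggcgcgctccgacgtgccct
HPS5: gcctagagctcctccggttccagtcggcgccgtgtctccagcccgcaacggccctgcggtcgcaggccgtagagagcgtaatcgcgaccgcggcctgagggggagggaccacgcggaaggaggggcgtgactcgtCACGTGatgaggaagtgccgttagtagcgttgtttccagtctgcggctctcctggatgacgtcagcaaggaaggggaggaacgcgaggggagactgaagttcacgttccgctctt
LAMP1: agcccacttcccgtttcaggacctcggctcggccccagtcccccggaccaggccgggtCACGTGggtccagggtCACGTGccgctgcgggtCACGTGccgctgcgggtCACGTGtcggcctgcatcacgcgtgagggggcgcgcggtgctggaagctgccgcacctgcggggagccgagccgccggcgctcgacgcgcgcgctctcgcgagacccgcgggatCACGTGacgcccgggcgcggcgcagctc
BAG6: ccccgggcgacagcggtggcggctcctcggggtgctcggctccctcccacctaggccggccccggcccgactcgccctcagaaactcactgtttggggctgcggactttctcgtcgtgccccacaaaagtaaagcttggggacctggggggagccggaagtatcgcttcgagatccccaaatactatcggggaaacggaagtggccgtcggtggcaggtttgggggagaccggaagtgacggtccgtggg
The stretches lie at chr10:31928832-31929081 (minus strand, ARHGAP12), chr11:18322141-18322390 (minus strand, HPS5), chr13:113296989-113297238 (plus strand, LAMP1) and chr6:31652391-31652640 (minus strand, BAG6). LAMP1, a main glycoprotein of the lysosomal membrane, had 5 copies in this stretch and 6 in the 300-base window that runs 50 bases past the start. ARHGAP12, a GTPase-activating protein, had 2 copies. HPS5, a subunit of the BLOC-2 complex that serves melanosome formation, had 1. BAG6, a chaperone of membrane protein quality control, had 0.

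The bases around 1 CACGTG copy each are shown for 7 further members with strong WT ranks, chosen after their values were seen, to let the flanks be read.
UBAP2: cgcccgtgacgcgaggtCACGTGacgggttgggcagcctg
SBNO1: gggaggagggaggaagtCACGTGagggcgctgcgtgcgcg
BSG: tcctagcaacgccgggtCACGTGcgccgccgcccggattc
SPNS1: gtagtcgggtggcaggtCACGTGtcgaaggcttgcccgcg
TMED10: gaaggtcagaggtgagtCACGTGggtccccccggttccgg
IGF2R: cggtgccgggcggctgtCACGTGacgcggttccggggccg
ACAD9: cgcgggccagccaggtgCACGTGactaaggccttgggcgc
In order, these 40-base stretches lie at chr9:34048915-34048954 (minus strand), chr12:123364906-123364945 (minus strand), chr19:572386-572425 (plus strand), chr16:28974709-28974748 (plus strand), chr14:75176620-75176659 (minus strand), chr6:159969037-159969076 (plus strand) and chr3:128879478-128879517 (plus strand). SPNS1 is a lysosomal transporter and IGF2R carries newly made hydrolases to the lysosome. TMED10 is a cargo receptor of the early secretory pathway, BSG is the membrane glycoprotein basigin, and ACAD9 helps to assemble respiratory complex I.

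Member promoters held the E-box at a higher share than other WT-strong promoters. Members overlapped 353 promoter windows of protein-coding genes (300 bases: 250 before and 50 after the start), and 132 of these windows, or 37.4%, held CACGTG. The share was 16.2% (520 of 3209) for the other WT-strong intervals and 8.32% over all 22012 windows in the table. The members ranked lower in WT than the other intervals did, so windows were also compared at a mean WT rank above 5000. This cut did not match the sets: beyond it the median mean WT rank was 7410 in member intervals and 6612 in the others. There, CACGTG stood in 34.3% of 277 member windows and in 10.4% of 1103 other windows. Counted by interval, 103 of the 236 members with a promoter window had CACGTG in it (43.6%), against 448 of 2289 others (19.6%). Windows of neighbouring genes or alternative starts can share sequence, so windows are not independent of each other. The remaining 275 members overlapped no such window and were not searched, since no genome sequence was used. In the 250 bases before the start alone, the shares were 34.0%, 14.3% and 7.35% of member, other and all windows.

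The flanks of the E-box differed in the same direction. TCACGTG, which contains CACGTG and was searched on both strands, stood in 31.2% of member windows, 11.1% of other windows and 4.43% of all windows. Of the 162 CACGTG copies in member windows, 39.5% had a T on both sides (TCACGTGA), against 20.9% of 617 copies in other windows and 15.1% of 2045 copies in all windows. Among the 7 stretches above, UBAP2, SBNO1 and IGF2R read TCACGTGA.

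Other motifs, searched on both strands with overlaps allowed, differed far less between member windows and other WT-strong windows. CATGTG stood in 8.78% of member and 7.14% of other windows (8.96% of all windows), and the M-box TCATGTG in 3.68% and 2.43% (2.32% of all). The AP-1 motif TGANTCA stood in 2.83% and 3.52% (6.16% of all), the cyclic AMP response element TGACGTCA in 3.97% and 3.33% (2.25% of all) and the SOX core ACAAAG in 11.6% and 8.97% (13.6% of all). The GC box GGGCGG stood in 74.8% and 79.3% (56.3% of all), the CCAAT box CCAAT in 38.5% and 43.9% (34.7% of all), the ETS core CCGGAAG in 20.7% and 18.9% (12.8% of all) and the TFAP2 motif GCCNNNGGC in 34.0% and 34.1% (27.4% of all). The median GC content was 66.3% in member windows, 67.7% in other windows and 62.3% in all windows. These are counts of letters in windows and carry no test.

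The share of windows with CACGTG was highest for intervals in none of the 9 variant lists, at 39.8% of 236 windows, and was 32.5% of 117 windows for intervals in 1 list. It was 20.6% of 107 windows for intervals in 2 lists, just outside the rule. From 3 to 9 lists it lay between 14.0% (4 lists) and 19.4% (6 lists), with 15.4% of 2188 windows for intervals in all 9. The plot of E-box share by number of variant lists shows this as a step between intervals in 1 list and those in 2.

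**Figure D1:**
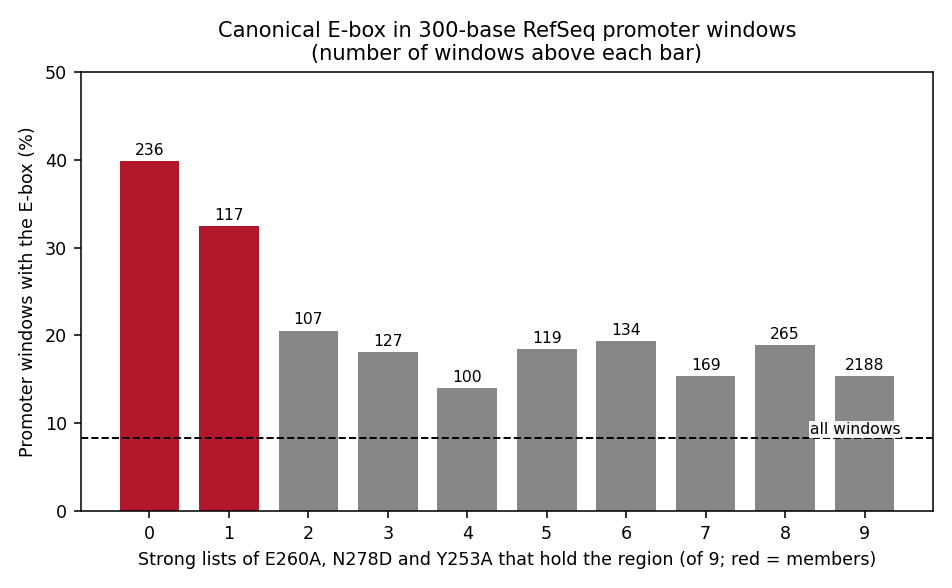
Percentage of 300-base RefSeq promoter windows that hold the canonical E-box (y axis) against the number of E260A, N278D and Y253A strong lists that hold the WT-strong interval (x axis, 0 to 9), with the number of windows above each bar and the share over all 22012 windows as a dashed line at 8.32%. The 2 red bars of the members stand at 39.8% and 32.5%, and the grey bars between 14.0% and 20.6%.

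In the groups of the rule, the members moved down the lists and did not drop out of them. The median rank of members was 7000, 7130 and 6984 in the WT libraries. It was 16021, 15528 and 16520 in E260A, 15557, 15240 and 15752 in N278D, and 14734, 15139 and 15117 in Y253A. The other WT-strong intervals had median ranks of 3662 to 3914 in WT and 3956 to 4188 in the 3 variants. All 511 members overlapped a row of the full list in each of the 9 variant libraries. So did 100% of the other WT-strong intervals, in lists of 167770 to 197401 rows, so being listed was not particular to members. Between 71.6% and 83.4% of the members were within the first 20000 rows, and at least 99.4% within the first 50000. The 180 members in 1 variant list owed it to E260A in 69 cases, to N278D in 57 and to Y253A in 54. Just inside the rule, these 180 intervals had median ranks of 7087 in WT, 13576 in E260A, 13261 in N278D and 13188 in Y253A. Just outside it, the 181 intervals in 2 variant lists had 6585, 12068, 12132 and 12275.

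A264C kept most members among its strong sites, and Q261A and rep263A did not. A264C took no part in the choice of members, but it was made the reference because earlier results placed it nearest to WT, so its own share of WT-strong regions is not independent of that choice, and the p-values are against this reference. The strong lists of A264C held 81.4%, 80.4% and 79.8% of the members (80.6% ± 0.791, SD, n = 3). Those of Q261A held 30.5%, 25.2% and 31.7% (29.2% ± 3.44, SD, n = 3), and those of rep263A held 32.9% and 25.2% (29.1% ± 5.40, SD, n = 2). No Q261A or rep263A library came near the lowest A264C library. The difference from A264C was -51.4 percentage points in Q261A (SE 2.27) and -51.5 points in rep263A (SE 2.53). Each had a two-sided permutation p of 1e-05 after adjustment over the 6 comparisons with A264C, which is the smallest value 100000 resamples can give. These 6 comparisons share their A264C libraries, and labels were permuted over the libraries of all 7 groups together, not within each pair. The size of the difference depended on the list length and the ranking: with strong lists of 5000 rows, of 20000 rows, or ranked by fold, it was -11.9, -9.33 and -15.1 points in Q261A and -12.5, -8.74 and -11.7 points in rep263A. At these settings A264C itself held 13.3%, 99.9% and 38.2% of the members. Q261A held 1.37%, 90.6% and 23.1%, and rep263A 0.783%, 91.2% and 26.5%.

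The same libraries kept nearly all other WT-strong intervals, so the loss in Q261A and rep263A was measured against them. The strong lists of A264C held 97.7% ± 0.145 (SD, n = 3) of the others, those of Q261A 91.4% ± 2.36 (SD, n = 3) and those of rep263A 93.1% ± 0.238 (SD, n = 2). The member share minus the share of the others in the same library, called the gap, was -16.2, -17.4 and -17.9 points in A264C. It was -62.8, -66.9 and -57.1 points in Q261A and -60.0 and -68.0 points in rep263A. The gap differed from that of A264C by -45.1 points in Q261A (SE 2.41) and by -46.9 points in rep263A (SE 2.70), each with an adjusted two-sided permutation p of 1e-05. At a mean WT rank above 5000, A264C still held 77.5% ± 0.802 of members and 93.9% ± 0.415 of others (SD, n = 3), and Q261A 27.3% ± 3.20 and 80.5% ± 5.07 (SD, n = 3). Members still ranked lower than the others beyond that cut, at a median mean WT rank of 7410 against 6612. The depths of Q261A (0.697 to 0.885) and rep263A (0.427 to 0.487) lay below those of A264C (1.04 to 1.49). The part of depth was not tested in either group.

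By region, 334 members (65.4%) were in all 3 A264C strong lists, against 92.6% of all WT-strong intervals, and 37 members were in none, against 0.752%. In Q261A, 44 members (8.61%) were in all 3 lists, against 77.8% of WT-strong intervals, and 237 (46.4%) were in none, against 5.28%. In rep263A, 71 members (13.9%) were in both distinct lists, against 83.6%, and 285 (55.8%) were in none, against 6.71%. The member counts in A264C stood nearer to those of WT-strong intervals at large than the counts in Q261A and rep263A did. All 3 A264C lists and no Q261A or rep263A list held 98 members (19.2% of members), a pattern shown by 20 of the 6541 others (0.306%).

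**Figure D2:**
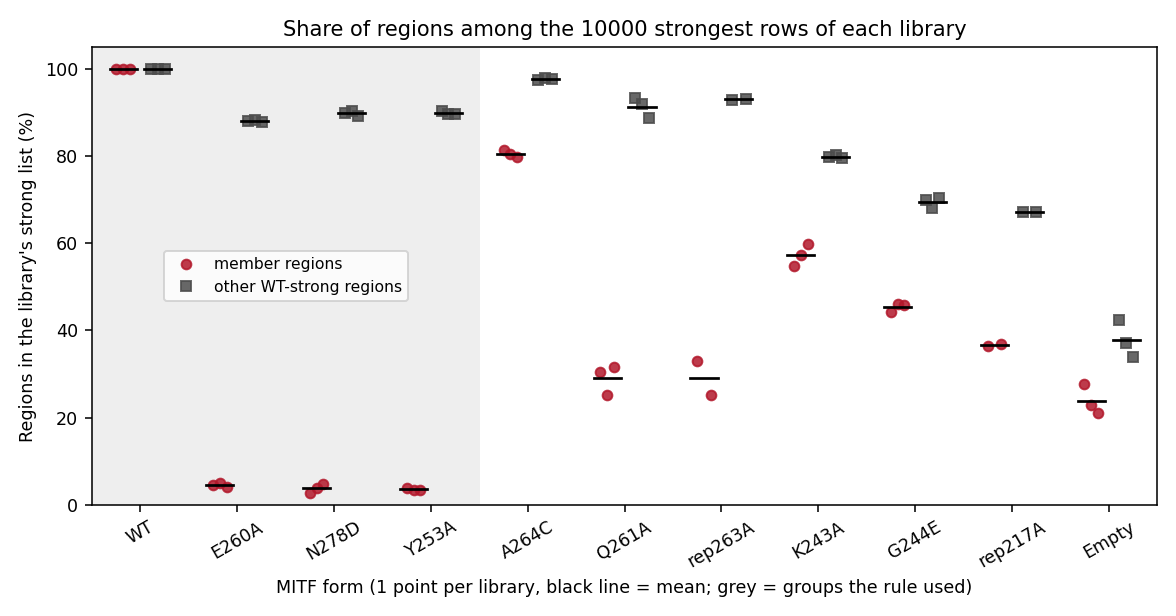
Percentage of regions overlapped by the strong list of each library (y axis), 1 point per library and a black line for the mean, for the 511 members (red circles) and the 6541 other WT-strong regions (dark squares), with the groups used by the rule shaded. Outside the shading the members stand at 79.8% to 81.4% in A264C, at 25.2% to 32.9% in Q261A and rep263A, and at 20.9% to 59.9% in K243A, G244E, rep217A and Empty, where the other regions are lower too.

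K243A, G244E, rep217A and Empty also held fewer members than A264C, but they held fewer of the other WT-strong intervals as well. The member shares were 54.8%, 57.3% and 59.9% in K243A (57.3% ± 2.54, SD, n = 3), 44.2%, 46.0% and 45.8% in G244E (45.3% ± 0.965, SD, n = 3) and 36.4% and 37.0% in rep217A (36.7% ± 0.415, SD, n = 2). Empty held 27.6%, 22.9% and 20.9% (23.8% ± 3.42, SD, n = 3). The differences from A264C were -23.2 points in K243A, -35.2 in G244E, -43.9 in rep217A and -56.8 in Empty, each with an adjusted permutation p of 1e-05. With strong lists of 5000 rows these differences turned to 6.72, 5.54, 0.196 and 4.11 points, and ranked by fold those of K243A and G244E turned to 14.5 and 4.17 points. The others were held at 79.9% ± 0.306 (SD, n = 3) in K243A, 69.5% ± 1.20 (SD, n = 3) in G244E, 67.2% ± 0.0973 (SD, n = 2) in rep217A and 37.9% ± 4.28 (SD, n = 3) in Empty.

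The gap at 10000 rows differed from that of A264C by less in these 4 groups than in Q261A and rep263A, and this order depended on the list length. The difference was -5.40 points in K243A (SE 2.41, adjusted permutation p = 0.163), -7.04 in G244E (SE 2.41, adjusted permutation p = 0.0636) and 3.07 in Empty (SE 2.41, adjusted permutation p = 0.597). In rep217A it differed by -13.3 points (SE 2.70, adjusted permutation p = 0.00346). Leaving replicate 1 out of every compared group gave -12.6 points in rep217A, and leaving out replicate 2 gave -13.7, each with 1 rep217A library. The rep217A call was lost in both cases and without WT replicate 1 (-6.61). At a mean WT rank above 5000 the rep217A difference was -0.404 points (adjusted permutation p = 1), and those of K243A and G244E were 8.26 and 4.32 points. With lists of 5000 rows the gap differed by 17.6 points in K243A, 22.9 in G244E, 21.4 in rep217A and 39.3 in Empty, against -7.59 in Q261A and -11.2 in rep263A. With 20000 rows it differed by -6.97, -11.7, -17.1 and -13.9 points in these 4 groups, against -9.19 and -8.60. These groups were also the shallowest, so depth and MITF form cannot be told apart in them, and a share of strong rows says nothing on regions that were undetectable at that depth.

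Counted by region, 187 members (36.6%) were in all 3 K243A lists, against 65.7% of WT-strong intervals, and 113 were in none, against 10.4%. In G244E, 143 members (28.0%) were in all 3 lists, against 55.3%, and 186 were in none, against 20.3%. In rep217A, 143 members (28.0%) were in both distinct lists, against 58%, and 279 were in none, against 28.1%. In Empty, 28 members (5.48%) were in all 3 lists, against 14.7%, and 274 were in none, against 38.6%. All 3 K243A lists and no Q261A list held 88 members (17.2%), against 57 others (0.871%), and all 3 Q261A lists and no K243A list held 17 members (3.33%), against 461 others (7.05%). Of the 19 lists outside the rule, all held 1 member, against 776 others (11.9%), and none held 1 member, against 0 others.

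In Q261A the share of intervals held was higher with each further variant list that held them. In each of the other groups outside the rule, rep263A and A264C included, it dipped at 1 step or more. From 0 to 9 lists, the mean share in Q261A was 21.9% of 331 intervals, 42.6% of 180, 46.2% of 181, 58.6% of 187, 65.3% of 191, 70.6% of 219, 76.9% of 294, 85.2% of 336, 88.9% of 515 and 98.2% of 4618. In rep263A it went from 21.3% at 0 lists to 43.3% at 1 list, 51.1% at 2 lists and 98.9% at 9 lists. The rep263A share was 74.1% at 4 lists and 73.7% at 5. In A264C the shares at 0, 1, 2 and 9 lists were 78.8%, 83.9%, 90.1% and 99.5%, with 92.5% at 3 lists and 90.1% at 5. In K243A the shares at 0, 1, 2 and 9 lists were 55.8%, 60.2%, 60.2% and 85.1%, with 70.9% at 3 lists and 65.7% at 7. G244E held 41.4% at 0 lists, 62.2% at 3, 55.1% at 5 and 74.4% at 9. In rep217A the values at these points were 38.1%, 57.5%, 49.1% and 73.1%, and in Empty 21.5%, 35.5%, 33.2% and 40.5%. The WT rank moved along with them, from a median of 7169 at 0 lists to 6571 at 5 lists and 2887 at 9 lists. From 0 to 5 lists the Q261A share went from 21.9% to 70.6% and the K243A share from 55.8% to 66.5%. The part of WT rank in these shares was not tested.

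**Figure D3:**
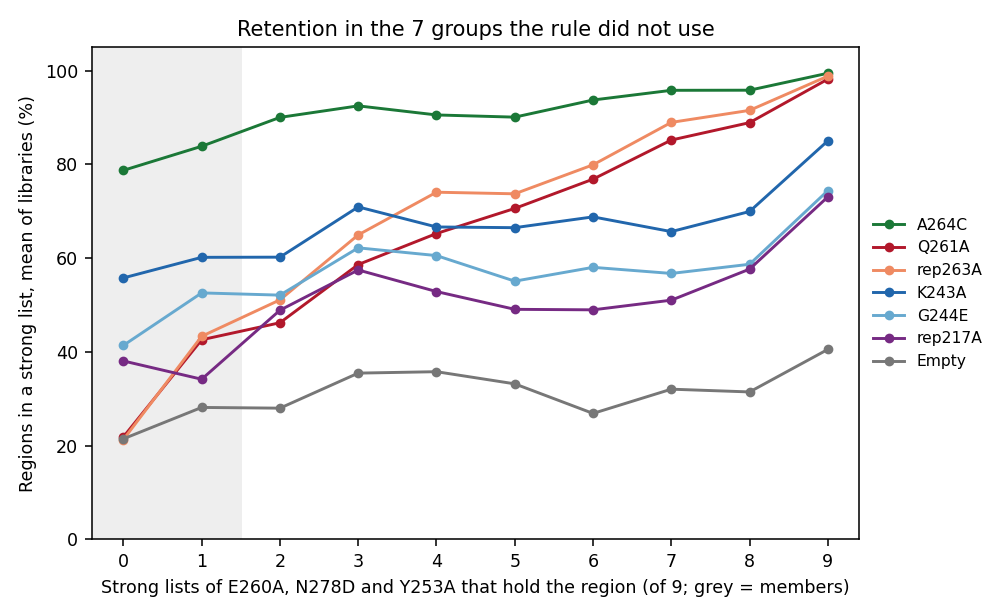
Mean percentage of WT-strong intervals in a strong list (y axis) for each of the 7 groups outside the rule (coloured lines) against the number of E260A, N278D and Y253A strong lists that hold the interval (x axis, members shaded). Q261A and rep263A climb from 21.9% and 21.3% at 0 lists to 98.2% and 98.9% at 9 lists, A264C goes from 78.8% to 99.5%, and K243A, G244E, rep217A and Empty lie between 21.5% and 85.1%.

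The summit signal, which needs no rank threshold, also set Q261A and rep263A below A264C. The summit pileup, the number of read fragments stacked at a peak's summit, was recovered from the deposited fold and p-value of each row. The median pileup of members divided by that of the other intervals in the same library was 0.742, 0.754 and 0.748 in WT and 0.714, 0.714 and 0.688 in A264C. It was 0.493 to 0.510 in E260A, 0.474 to 0.505 in N278D and 0.50 to 0.518 in Y253A, as the rule would make it. In Q261A it was 0.552, 0.533 and 0.591, and in rep263A 0.542 and 0.519, below each A264C library. K243A stood at 0.690, 0.697 and 0.727, G244E at 0.64, 0.65 and 0.63, and rep217A at 0.622 and 0.643. Empty stood at 0.75, 1.0 and 0.667, from medians of 2 to 4 fragments, too few to rank it. These ratios are a description with no test of their own.

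**Figure D4:**
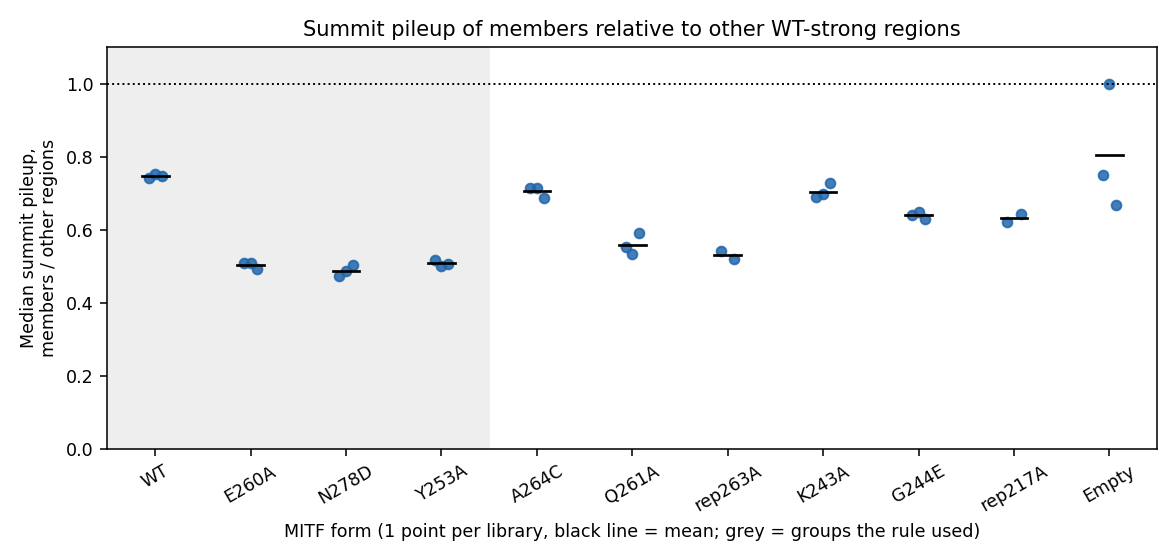
Median summit pileup of the 511 members divided by that of the other WT-strong regions (y axis, linear, no unit), 1 point per library with the mean as a black line, groups used by the rule shaded. WT, A264C and K243A lie between 0.688 and 0.754, Q261A and rep263A between 0.519 and 0.591, and the 3 variants of the rule between 0.474 and 0.518.

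The local background at members was lower as well. Its median at members was 9.15 to 10.1 in WT, against 11.5 to 12.5 at the other intervals. In E260A it was 4.70 to 5.55 against 7.94 to 9.27, and in Q261A 4.91 to 6.27 against 8.28 to 9.98. The fold enrichment is the summit over the local background after a constant is added to both, so the same ratio reads lower in a shallower library. The fold differed less between groups than the pileup did, and the part of depth in it was not tested. Its median at members was 15.1 ± 0.373 in WT, 15.4 ± 0.0654 in A264C, 12.7 ± 0.118 in E260A, 13.6 ± 0.374 in N278D, 13.4 ± 0.241 in Y253A and 14.0 ± 0.714 in Q261A (SD, n = 3 each). In rep263A it was 12.5 ± 0.128 (SD, n = 2).

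Members with and without an E-box in a promoter window were held differently in some groups. Q261A held 20.7% ± 7.29 of the 103 members with CACGTG in a promoter window, 25.1% ± 6.48 of the 133 with a window but no CACGTG, and 34.3% ± 4.96 of the 275 with no window (SD, n = 3 libraries). A264C ran the other way, with 90.6% ± 2.44, 82.2% ± 3.71 and 76.0% ± 1.67. G244E held 51.8% ± 2.02, 68.2% ± 3.78 and 31.9% ± 1.72, and Empty 22.3% ± 2.57, 36.3% ± 5.33 and 18.3% ± 2.82. In A264C the 3 classes did not overlap between libraries. In Q261A both classes with a window stood at or below 30.8% in each library, and the class with no window at or above 30.9%. In G244E, members with a promoter window but no E-box exceeded both other classes in each library. Among the other WT-strong intervals the same 3 classes stood at 99.5%, 97.6% and 97.6% in A264C, 88.9%, 89.8% and 92.4% in Q261A, 86.3%, 89.5% and 59.1% in G244E, and 49.03%, 55.3% and 29.2% in Empty, in the same order as the members within each group. These class shares were not tested.

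A larger share of members than of other intervals lay at ends of protein-coding genes, given here as counts with no test. Non-coding genes were not counted. An end of a protein-coding RefSeq gene fell inside 255 of 511 members (49.9%), against 35.6% of the others and 34.5% of intervals in all 9 variant lists. Within 5000 bp of such an end lay 330 members (64.6%) against 46.6% of the others. At a mean WT rank above 5000 the shares were 47.7% against 32.9% and 63.5% against 44.2%. Deep inside a protein-coding gene, more than 5000 bp from such ends, lay 106 members (20.7%, others 28.6%). Another 75 (14.7%, others 24.8%) lay as far from such ends but outside protein-coding genes. Member width was similar, with a median of 995 bp against 974 bp. By chromosome, members made up the largest share of WT-strong intervals on chromosomes 10 (27 of 166, 16.3%), 9 (22 of 145, 15.2%) and X (17 of 114, 14.9%). The smallest were on chromosomes 20 (8 of 270, 2.96%) and 11 (15 of 424, 3.54%).

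Over all 19974 protein-coding genes, 531 had a member in the gene or within 5000 bp of its end, and 4522 had another WT-strong interval, so short lists can hold few or no members at that rate. No member lay in or within 5000 bp of any of 16 pigmentation genes, although 13 of them had another WT-strong interval. The same held for 16 survival, cell cycle and metabolism genes (0 with a member, 8 with another interval), 13 lineage regulators (0 and 5) and 8 MiT/TFE family genes and partners (0 and 2). Of 26 lysosome and autophagy genes, 2 had a member (LAMP1 and CTSA) and 21 had another WT-strong interval. SPRED1 was the member gene of 15 MAPK feedback genes, BRCA2 of 10 DNA repair and replication genes, and RPL13A and TUBB of 16 housekeeping genes.

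LAMP1 was 1 of the 2 lysosome list genes with a member. At LAMP1 (chr13:113296589-113297960, over the start of the gene) the summit pileup was 257, 277 and 236 in WT and 293, 299 and 273 in A264C. It was 120, 97 and 94 in Q261A and 49 and 71 in rep263A. These pileups are not scaled for depth, which was lower in Q261A and rep263A. The median pileup of the other WT-strong intervals was 203 to 221 in WT and 215 to 283 in A264C. It was 165 to 174 in Q261A and 96 to 108 in rep263A. The LAMP1 rank was 2779, 1847 and 3486 in WT, 2607, 3330 and 2007 in A264C, 7954, 10252 and 14456 in Q261A and 14271 and 8134 in rep263A. In the variants of the rule its rank was 7469 (N278D replicate 2) to 21116 (E260A replicate 1), the former being its 1 variant strong list. LAMP1 ranked 7399, 3523 and 11589 in K243A and was outside 4 of the 5 lists of G244E and rep217A, and outside all Empty lists.

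At CTSA (chr20:45890093-45892031), the gene of the lysosomal protective protein cathepsin A, the interval also spans SPATA25 and NEURL2. The CTSA interval ranked 4795, 6382 and 4388 in WT and 3360, 4377 and 4772 in A264C. It ranked 11515, 20846 and 14644 in Q261A, outside every strong list, and 26494, 22342 and 31258 in K243A. In rep217A it ranked 6425 and 3918, higher than in Q261A and K243A. CTSA was thus out of the strong lists of K243A and Q261A and in those of A264C and rep217A.

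HPS5 (chr11:18321993-18323049) shares its interval with GTF2H1, a subunit of the TFIIH complex. The pileup at HPS5 was 280, 209 and 274 in WT, 336, 385 and 310 in A264C, 119, 93 and 116 in Q261A and 58 and 68 in rep263A. It is not scaled for the lower depth of Q261A and rep263A. The HPS5 rank was 1535, 1455 and 1327 in A264C and 2887, 1534 and 1260 in K243A, but 7855, 11106 and 8825 in Q261A and 10323 and 8684 in rep263A. HPS5 stayed in 15 of the 19 strong lists outside the rule, near their lower end in Q261A and rep263A.

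ARHGAP12 (chr10:31927930-31929591) ranked 1427, 3497 and 1667 in WT, 3588, 3769 and 2875 in A264C and 3893, 4123 and 4231 in K243A. It ranked 9250, 12896 and 11043 in Q261A and 12781 and 12980 in rep263A, and 11202 to 39443 in the variants of the rule. K243A and A264C kept ARHGAP12 in each library, while Q261A kept it in 1 of 3 and rep263A in 0 of 2. IGF2R (chr6:159968580-159969886) had this pattern too, with ranks of 3788, 3985 and 4076 in A264C, 5861, 4610 and 9034 in K243A, 9356, 12295 and 12915 in Q261A and 12611 and 12816 in rep263A. TMED10 (chr14:75176038-75177258) ranked 3545, 2898 and 654 in K243A against 10871, 11319 and 3686 in Q261A, with 1 high Q261A library.

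RABEP1 and MIEN1 were mostly outside the K243A lists as well as those of Q261A and rep263A. At RABEP1 (chr17:5281790-5282907), an effector of the early endosome GTPase Rab5, the rank was 2639, 2389 and 2837 in WT and 2728, 3299 and 4952 in A264C. RABEP1 ranked 14659, 19083 and 25421 in Q261A, 12151 and 13621 in rep263A and 18628, 14011 and 11361 in K243A, outside all 8 lists. At MIEN1 (chr17:39729942-39730947), a gene named for cell migration and invasion, the pileup was 212, 214 and 223 in WT, 262, 286 and 188 in A264C, 91, 66 and 79 in Q261A and 45 and 47 in rep263A. These pileups too are not scaled for the lower depth of Q261A and rep263A. MIEN1 was in all 3 A264C lists, in none of Q261A or rep263A, and in 1 each of K243A and G244E. STAT6 (chr12:57111071-57112648), a transcription factor of interleukin signalling, differed from these, since the A264C and K243A lists all held the interval and 1 of 5 lists of Q261A and rep263A did.

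The remaining strongest members in WT lay at DIP2C (chr10:624445-625734), PCBP1 and ASPRV1 (chr2:70086229-70087792), BAG6 and APOM (chr6:31651690-31653101), PTPN23 (chr3:47380377-47381711), UBAP2 (chr9:34048402-34049648) and SBNO1 (chr12:123364450-123365466). All of them were in the 3 A264C lists. DIP2C had the best mean WT rank of all members, 1850, and was in all 3 lists of Q261A, K243A and G244E. SBNO1 was in no Q261A list and in all 3 of K243A and G244E. UBAP2 was in 1 of 3 Q261A lists and in all 3 of K243A and G244E.

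BAG6 was the 1 member in all 19 lists outside the rule, and NASP, CROCCP2 and PRRC2A were each in 17. BAG6 had ranks of 8274, 110 and 571 in Empty and pileups of only 5, 12 and 8 there. Its rank was 3337, 2785 and 2047 in WT, 8412, 7714 and 6839 in Q261A and 1432, 1939 and 951 in G244E. NASP (chr1:45583192-45585204), a histone chaperone gene, ranked 7784, 4814 and 4574 in WT but 1367, 610 and 689 in G244E and 1483, 3445 and 2512 in Empty. PRRC2A (chr6:31619935-31621113) ranked 7929, 5456 and 5743 in WT, 2984, 2190 and 895 in G244E and 3491, 492 and 18071 in Empty. BAG6, NASP and PRRC2A had promoter windows without CACGTG. PTPN23, an endosomal sorting factor whose window also lacks CACGTG, was in 16 of 19 lists, with 1 of 3 Empty lists and 1 of 2 rep217A lists among them.

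**Figure D5:**
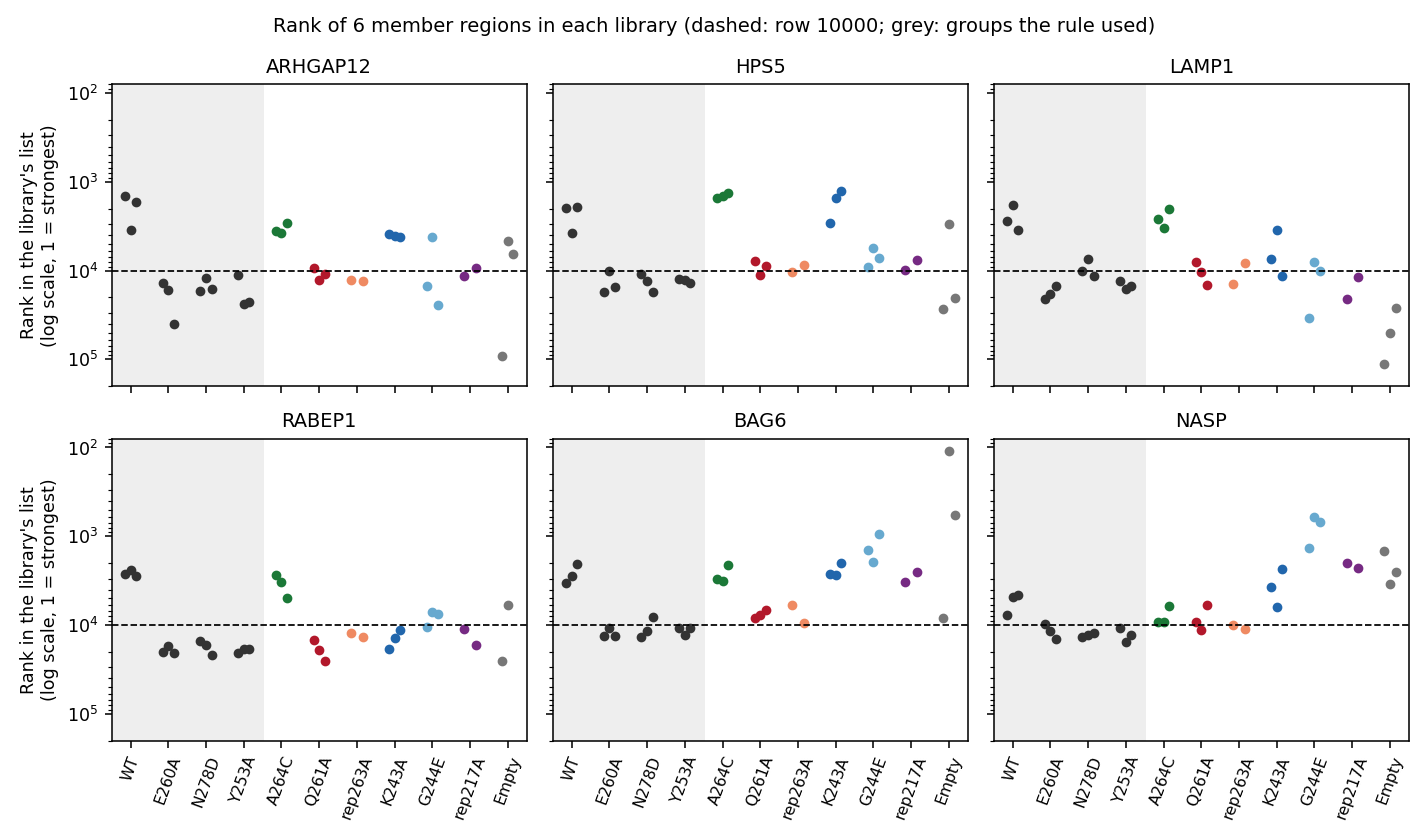
Rank of 6 member regions in the list of each library (y axis, log scale with rank 1 at the top, dashed line at row 10000), 1 point per library, groups of the rule shaded and points of regions not listed left out. ARHGAP12, HPS5 and LAMP1 stand well above the line in A264C and near or below it in Q261A and rep263A, RABEP1 lies below it in K243A as well, and BAG6 and NASP stand highest in G244E, rep217A or Empty.

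The lowest ranks in the variants of the rule were found at PRNP, KCNJ6, ARHGDIA, OPA3 and DBP. The interval nearest to PRNP, the prion protein gene (chr20:4683038-4683647, 2809 bp from its end), ranked 6953, 8141 and 9635 in WT. It ranked 39329, 39952 and 42907 in E260A and 38520, 26775 and 40101 in Y253A but 16145, 13159 and 18715 in N278D, so the 3 variants were not alike there. At ARHGDIA (chr17:81870246-81872363) the ranks were 6473, 5977 and 5431 in WT, 5081, 4682 and 6799 in A264C, 23665, 20900 and 18333 in Q261A and 23323 and 31978 in rep263A. At DBP (chr19:48634258-48634808), a circadian transcription factor, ranks were 7554, 7190 and 5818 in A264C and 15156, 19146 and 28568 in Q261A. The interval in KCNJ6, a potassium channel gene (chr21:37800502-37801143), was the 1 member in none of the 19 lists, with a WT rank of 9470, 9809 and 9626, close to the limit of the strong list. The members in only 1 of the 19 lists included intervals nearest to SEMA3D, SPATA31H1, ZNF608 and LOC101927345, each with a mean WT rank of 7626 or beyond.

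Members from the remaining gene lists lay at SPRED1, BRCA2, RPL13A and TUBB. SPRED1, an inhibitor of RAS-MAPK signalling, ranked 6428, 7379 and 9708 in WT, 7615, 8339 and 7354 in A264C and 10159, 11775 and 10884 in Q261A. The interval at BRCA2 and its neighbour ZAR1L ranked 8487, 8854 and 8513 in WT and 11738, 14673 and 9245 in Q261A. RPL13A, a ribosomal protein gene, ranked 3749, 3833 and 4641 in WT, 4922, 5693 and 4011 in A264C and 11546, 9738 and 22780 in Q261A. TUBB, a tubulin gene, ranked 5893, 4301 and 4801 in WT, 5386, 6785 and 5122 in A264C and 8845, 14307 and 10504 in Q261A. At all 4 regions each Q261A library ranked the interval lower than every WT library did. The rule required every WT strong list to hold these intervals, so the comparison with WT carries no test of a loss. A264C took no part in the rule, and each Q261A library ranked SPRED1, RPL13A and TUBB lower than every A264C library did. At BRCA2 the 2 groups overlapped, since A264C ranked the interval 9671, 8757 and 6850. The Q261A strong lists still held BRCA2, RPL13A and TUBB in 1 library each, and held SPRED1 in none.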

How the data were processed

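CUT&Tag of HA-tagged MITF was deposited as 1 narrowPeak list per library with hg38 coordinates. Tools listed in the submitters' processing notes are MACS2, Bowtie2 2.3.4.3 and bcl2fastq 2.20.0.422. The MACS2 version, any control and the handling of duplicates are not given in the sources used here. The authors deposited for each peak a fold enrichment, a −log10 p, a −log10 q and the position of the summit within the peak. The fold is a ratio of summit to local background, with a constant added to each. The deposited score column was left aside. These values are the authors' own and served to rank and describe peaks within a list.

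Rows on chromosomes 1 to 22 and X were kept. Intervals were merged and overlapped by at least 1 bp. The pileup and background of each summit were recovered from fold and p. In a sample of rows with −log10 p below 12, 100% came within 0.002 of the −log10 p. Stronger rows, among them most members in WT, A264C, Q261A, rep263A and the variants of the rule, were outside this check. The method was also checked on simulated data. The value of a region in a library is that of its best-ranked overlapping row. Shares and gaps were compared with A264C, which earlier results placed nearest to WT, over all 19 distinct libraries of the 7 groups outside the rule. Group labels were permuted (100000 resamples, seed 1, two-sided, threshold 0.05), and the highest standardised difference over 6 comparisons gave the adjusted p.

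Genes came from RefSeq spans of GRCh38.p14, the same assembly, without exons, and promoter windows from its promoter table. Named regions were the 12 members of highest mean WT rank, every member at a gene of the fixed lists (1 such list and its member are not reported here), the 5 of worst median variant rank, and the 5 in most and the 5 in fewest strong lists outside the rule. Of the list genes, LOR was not found by symbol. The members, lists and rules were chosen with earlier results of these data known. The planned motif search in the regions themselves was replaced by promoter windows, and printed stretches end at the start site. Other settings tried were list sizes, ranking by fold, overlap, stricter members, WT rank, a replicate block, and leaving out libraries. Python 3.11.15, numpy 2.4.6, pandas 2.3.3, scipy 1.17.1 and matplotlib 3.10.9 were used.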

Additional observations from a re-analysis of the deposited data

How the results depend on the processing

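Of 180 recomputed comparisons, 144 kept their direction and their side of the threshold. The Q261A and rep263A differences from A264C did so under all 15 settings tried, with ranges of -62.7 to -9.33 and -61.9 to -8.74 points for the share and -54.4 to -7.59 and -54.8 to -8.60 for the gap, and adjusted permutation p-values of at most 0.0063. The comparisons of K243A, G244E, rep217A and Empty did not. With strong lists of 5000 rows, although 438 of the 511 members have a mean WT rank beyond 5000, the share differed by 6.72, 5.54, 0.196 and 4.11 points and the gap by 17.6, 22.9, 21.4 and 39.3 in K243A, G244E, rep217A and Empty. With 20000 rows the gap differed by -6.97 in K243A, -11.7 in G244E and -13.9 in Empty. Ranked by fold, the share differed from that of A264C by 14.5 points in K243A, 4.17 in G244E and -3.10 in rep217A. The gap then differed by -5.21, -6.66 and 8.06 points in K243A, G244E and Empty. With 50% overlap required, the gap differed by -5.88 points in G244E and 13.2 in Empty. For members in none of the 9 lists it differed by -9.18 points in G244E. At a mean WT rank above 5000 the gap differed by 8.26, 4.32, -0.404 and 10.4 points in K243A, G244E, rep217A and Empty. A split by promoter window was chosen after seeing the data. For members without a window, the gap differed by -9.37 points in rep217A and 10.7 in Empty. For those with one, it differed by -11.6 points in K243A, -15.8 in G244E and -11.8 in Empty. Replicates were also left out in turn, in the compared groups or in WT. The difference in gap from A264C then ran from -8.18 to 0.244 points in G244E, -13.7 to -6.61 in rep217A and 2.21 to 10.1 in Empty. The rep217A call was lost without replicate 1 or 2, where the lone library has to be taken as varying like those of other groups, and without WT replicate 1. The cause of these changes was not tested.

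The number of members was 331 with none of the 9 lists allowed, and 383 to 692 under the other settings. Which regions are members depends on the threshold: with lists of 5000 or 20000 rows or ranking by fold, the 383, 516 and 516 members overlapped only 35, 17 and 61 of the 511. Deviations of same-numbered libraries correlated at 0.00376 on average over 52 pairs (-0.0401 to 0.0842). Those of different-numbered libraries correlated at -0.00192 over 102 pairs (-0.0589 to 0.0444). No pairing by number was seen in these values, and the labels do not say what same-numbered replicates share. With a replicate block the Q261A share differed by -51.4 points and the rep263A gap by -46.1 (permutation p = 3e-05), and no call changed. The shallowest libraries give the least information: Empty lists rank summits of 2 to 4 fragments.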

Other observations

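Over all 7052 WT-strong intervals, which carry no condition on the variants, intervals with an E-box in the promoter had a lower mean share than those with a promoter window and no E-box in each group except WT, by definition, and A264C. E260A strong lists held 73.8% ± 2.54 of the 551 intervals with CACGTG in a promoter window and 85.8% ± 2.07 of the 1974 with a window but no CACGTG (SD, n = 3 libraries). N278D held 69.0% ± 1.69 and 80.8% ± 2.15, Y253A 70.5% ± 2.72 and 81.7% ± 2.31, and Q261A 76.2% ± 4.27 and 85.4% ± 5.02. In rep263A the values were 75.6% ± 1.15 and 87.1% ± 0.788 (SD, n = 2). A264C had 97.8% ± 0.544 and 96.6% ± 0.489. K243A had 87.4% ± 2.0 and 91.6% ± 0.699, G244E 79.9% ± 0.907 and 88.1% ± 0.546, rep217A 63.8% ± 1.67 and 75.8% ± 0.251 (SD, n = 2), and Empty 44.0% ± 4.78 and 54.0% ± 5.43. These shares were not tested.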
